A study of Mus musculus with 4 samples.

Results

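The subject here is the part of the injection response that depended on genotype: for each gene, how far the change between uninjected and injected mice in Irf4-/- natural killer (NK) cells departed from the change in wild-type (WT) NK cells. It was taken as the log2 ratio of injected to control in Irf4-/- minus the same log2 ratio in WT, and is called the difference of response below. It was computed for the 9674 genes with a mean level of at least 5 CPM (counts scaled to a common library size) over all 4 libraries, of 35275 genes in the count table and 21484 with a count in any library. A positive difference means a response that was more positive, or less negative, in Irf4-/- than in WT.

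The 4 libraries were made from NK cells enriched from spleen and flow-sorted on NK1.1 with CD3-positive cells left out. The WT mice were of the C57BL/6 (B6) strain and the others were labelled Irf4-/-, with no strain of their own given. In each genotype 1 library came from mice injected intravenously with B16-F10 cells, a mouse melanoma line, with spleens taken on day 20, and 1 from mice that received no injection. The number of animals in each library is not stated in the labels, nor whether the Irf4-/- mice were littermates of the WT mice. With 1 library in each group there is no replicate check of any difference, so no p-value is given, and the error printed is the exact 95% counting interval of the reads. That interval covers counting error only, not variation between animals, sorts or library preparations. Reads amplified by PCR and counted with no molecular identifiers can also be copies of 1 molecule.

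IRF4 is a transcription factor of lymphocytes that is induced by antigen-receptor and cytokine signals and binds DNA with partners such as BATF and PU.1. In T cells it is known for sustaining clonal expansion, glycolysis and effector differentiation after activation. NK cells are innate lymphocytes that kill tumour cells with perforin and granzymes, are maintained by interleukin 15, and pass from CD27-positive to CD11b-positive and KLRG1-positive stages as they mature. B16-F10 cells given into the vein lodge mainly in the lung.

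Library totals were between 15878159 and 21104881 counts. All 10 NK markers listed passed 5 CPM and their summed level was between 14550 and 16280 CPM. Neutrophil markers summed to between 0.215 and 0.915 CPM, and the 7 melanoma markers to between 3.82 and 4.996 CPM, nearly all of it Pmel and Mitf. The melanoma markers Mlana, Tyr, Tyrp1 and Dct had 0 counts in all 4 libraries, where 3 counts correspond to at most 0.189 CPM. Among all genes measured, the WT injected library was the one farthest from the mean of the other 3 for 46.1%, against 15.9% to 19.5% for each of the others. Since the difference of response needs all 4 libraries, it cannot be computed without that library.

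Irf4 itself (chromosome 13, 30749226 to 30766976, GRCm38) held 93 counts in WT control and 57 in WT injected, and 188 and 236 in the control and injected libraries labelled Irf4-/-. In CPM these were 4.42, 3.07, 11.7 and 12.7. Irf4 counts were therefore higher, not lower, in the libraries labelled Irf4-/-, and whole-gene counts do not show which exons the reads came from, so they do not check the deletion. The libraries are named by their labels throughout. The difference of response of Irf4 was 0.62 (0.06 to 1.22), under the 2-fold size used below.

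A gene was called when its difference of response was at least 2-fold (1 on the log2 scale) and its counting interval excluded 0. The rule sets a size and tests nothing. By it 77 genes (0.796% of those measured) had a more negative response in Irf4-/- and 46 (0.476%) a more positive one. The interval alone lay below 0 for 19.4% of measured genes and above 0 for 25.5%. The list counts below are to be read beside these shares, which are not matched for level. Intervals typically reached 0.415 to either side at 5 to 20 CPM and 0.0992 from 100 CPM up. A list of abundant genes can therefore hold more intervals off 0 through depth alone. The called genes nearest the bound were Tgfb1i1 at 1.0 and Pheta2 at 1.01 on the positive side and Ifngr1 at -1.01 and Gm13456 at -1.01 on the negative side. Just outside it stood Gapdhs and Tcf19, both at 0.99, Selenbp1 at -0.99 and 1110032A03Rik at -0.98.

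The WT response was the larger of the pair, in either direction, for 70 of the 77 genes called negative and 29 of the 46 called positive. Over all measured genes the share was 65.6%, so the positive count was near it. The called genes were also chosen on the difference of these same responses. Of the 77 genes with a more negative response in Irf4-/-, 51 were at least 2-fold higher after injection in WT with no such change in Irf4-/-, 4 were at least 2-fold lower in Irf4-/- only, 2 were higher in both and 20 passed 2-fold in neither. Their median response was 1.20 in WT and -0.12 in Irf4-/-. The library farthest from the mean of the others was WT injected, on the high side, for 39 of the 77. It was WT control, on the low side, for 31, of which 18 were pseudogenes, and Irf4-/- injected, on the low side, for 7. Over all 9674 measured genes it was WT injected, high, for 2158 and WT control, low, for 754. The count of 51 therefore does not by itself show a rise from a control level shared by both genotypes. Of the 46 genes with a more positive response, 15 were at least 2-fold lower in WT only, 5 at least 2-fold higher in Irf4-/- only, 2 lower in both, 1 passed 2-fold in opposite directions and 23 passed in neither. Their median response was -0.89 in WT and 0.26 in Irf4-/-.

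**Figure D1:**
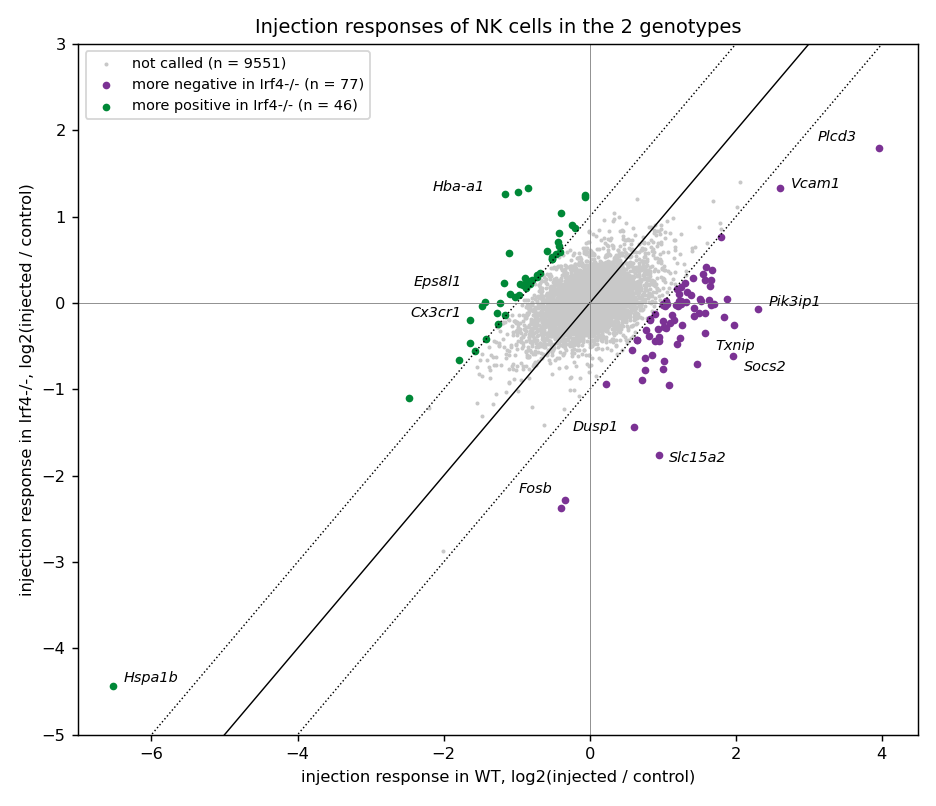
Injection response of each of the 9674 measured genes in WT (x axis) and in Irf4-/- (y axis), both as log2(injected / control), 1 point a gene. The solid line marks equal responses and the dotted lines a 2-fold difference. Most of the 77 purple genes lie to the right of 0 near a y value of 0, and most of the 46 green genes to the left of 0.

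The same spread could be seen from each genotype's own response. In WT, injection went with a level raised 2-fold or more in 96 genes (0.992%) and lowered as much in 88 (0.91%). The numbers in Irf4-/- were 13 (0.134%) and 20 (0.207%). The standard deviation of the response across genes was 0.36 in WT and 0.23 in Irf4-/-, and 65.6% of genes had the larger response, in either direction, in WT. Pearson's r between the responses, across genes, was 0.44 and Spearman's rho 0.37. They share no library, but genes are not independent replicates.

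The responses of the genes past 2-fold in 1 genotype were read in the other. The 88 genes at least 2-fold lower in WT had a median response of -1.20 there and -0.50 in Irf4-/-, and for 68 of them the Irf4-/- interval also lay below 0. For the 96 genes at least 2-fold higher in WT the medians were 1.24 and 0.23, and 43 had an Irf4-/- interval above 0 while 9 had one below. Whether the directions differ was not tested. Conversely, the 13 genes at least 2-fold higher in Irf4-/- had medians of 1.255 there and 0.33 in WT. For the 20 lower ones the medians were -1.21 and -0.89. Each set was chosen for a large response in 1 genotype, so a smaller median in the other is partly built in by the choice.

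Promoter sequence is shown, as description only, for 4 called genes. They were chosen because each holds a short motif of a factor known for the gene's pathway. All sequences come from RefSeq (GRCm38.p6), are written 5′ to 3′ on the gene's strand, and carry the motif match in capitals. The Hspa1b stretch (chr17:34959309-34959368, minus strand) holds a heat shock element, the Txnip stretch (chr3:96557809-96557868, plus strand) the FOXO motif on the opposite strand, the Dusp1 stretch (chr17:26508582-26508641, minus strand) a cyclic AMP response element, and the Ifit3 stretch (chr19:34583348-34583407, plus strand) an interferon regulatory factor motif on the opposite strand.
Hspa1b: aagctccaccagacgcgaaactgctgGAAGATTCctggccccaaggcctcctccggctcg
Txnip: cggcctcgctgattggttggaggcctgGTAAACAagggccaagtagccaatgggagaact
Dusp1: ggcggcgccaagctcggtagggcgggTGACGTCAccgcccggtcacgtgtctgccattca
Ifit3: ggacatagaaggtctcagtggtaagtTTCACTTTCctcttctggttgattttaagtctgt

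Among the genes with the most negative difference, several were highest in the WT injected library. In what follows the level of a gene is given in CPM in the order WT control, WT injected, Irf4-/- control, Irf4-/- injected. Pik3ip1, an inhibitor of phosphoinositide 3-kinase, stood at 24.2, 120.2, 4.18 and 3.97. Its response was 2.31 in WT and -0.07 in Irf4-/-, a difference of -2.38 (-2.90 to -1.86). It was already lower in the Irf4-/- control library than in WT control, so its response there started from a level near 4 CPM. Txnip, a thioredoxin-binding protein that restrains glucose uptake, was at 557.9, 1663, 611.6 and 479.2, with the WT injected library well above the other 3, which lay close together. The difference was -1.93 (-1.98 to -1.88).

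Socs2, a feedback inhibitor of cytokine receptors that signal through STAT5, stood at 12.8, 49.8, 6.24 and 4.03 CPM. Here the injected library was the higher of the WT pair (1.96) and the lower of the Irf4-/- pair (-0.62), a difference of -2.58 (-3.09 to -2.10). Tsc22d3, which encodes the glucocorticoid-induced leucine zipper protein GILZ, showed the same arrangement at 196.8, 397.1, 242.0 and 151.3, a difference of -1.69 (-1.78 to -1.60). Slc15a2, a proton-coupled peptide transporter, had the largest difference of any called gene, -2.70 (-2.99 to -2.44), from levels of 31.6, 60.8, 37.3 and 10.96. In each of these 3 genes the WT injected library was the highest and the Irf4-/- injected library the lowest.

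Of the FOXO factors and their targets, a list of transcription factors held in the cytoplasm by AKT signalling and the genes they are known to activate, 25 of 27 were measured. Their median response was 0.11 in WT and -0.14 in Irf4-/-, and the median difference was -0.23, against 0.03 over all genes. Intervals lay below 0 for 13 and above 0 for 6. The 4 called were all negative: Pik3ip1, Txnip, Tsc22d3 and Irs2, the insulin receptor substrate. Over all measured genes 0.796% were called negative. Irs2 stood at 16.5, 35.3, 15.5 and 13.3 CPM, a difference of -1.32 (-1.65 to -1.01). The proapoptotic targets Bcl2l11 and Bbc3 had differences of -0.64 each, with a higher level after injection in both genotypes. Members that went the other way included Bcl6 at 0.91 (0.68 to 1.14) and Klf2, the factor of lymphocyte quiescence and egress, at 0.32 (0.27 to 0.37). The FOXO motif TGTTTAC, searched on both strands, was held by 21.1% of the 19 list members with a promoter and by 3.2% of all measured genes with one. The list was drawn up from known FOXO targets, so this share lends no support. Among called genes with a promoter the motif was held by 8.82% of the 34 negative and 5.71% of the 35 positive ones.

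**Figure D2:**
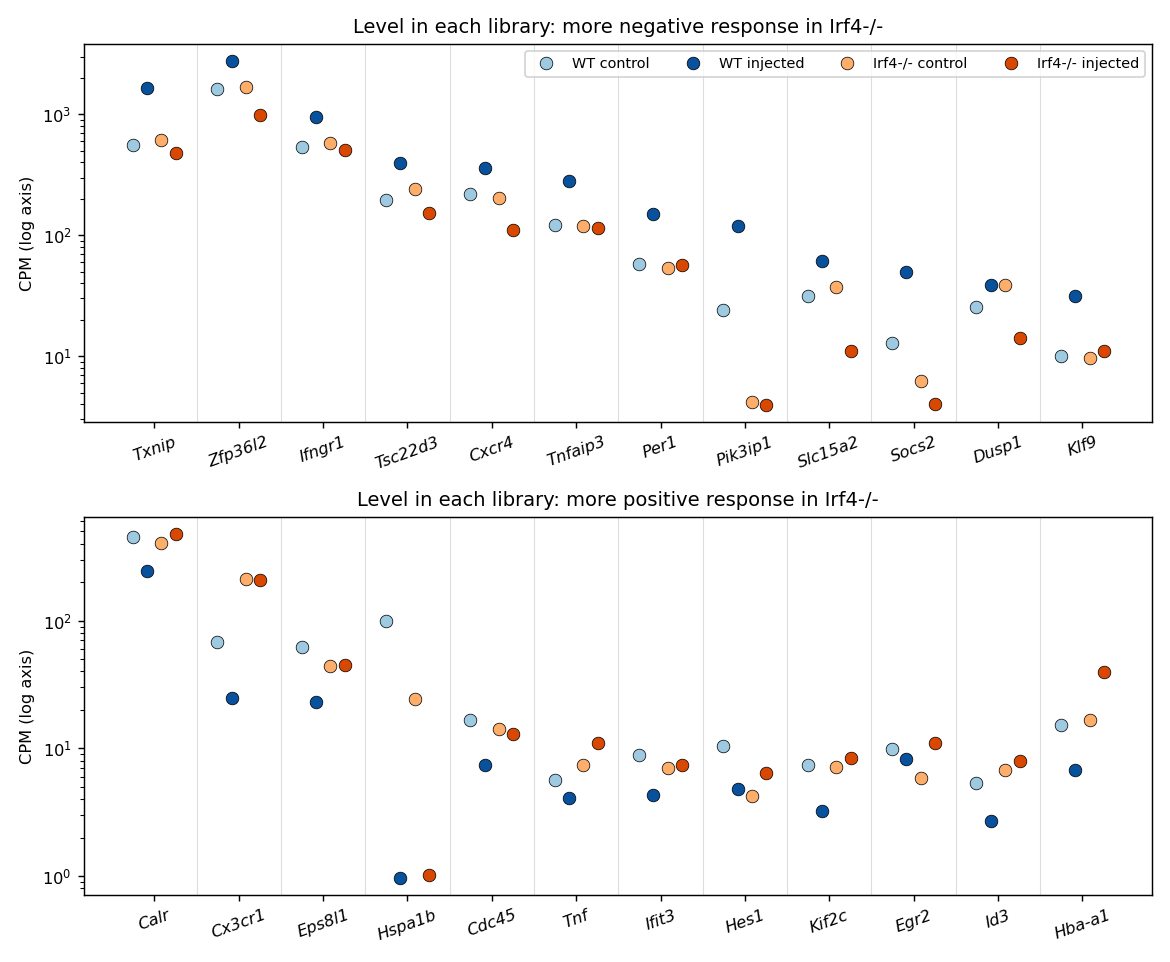
Level in CPM (log axis) of 12 genes with a more negative and 12 with a more positive response in Irf4-/-, 1 point a library. In the upper panel the WT injected library is the highest point for every gene except Dusp1, where it ties closely with the Irf4-/- control library, and in the lower panel it is the lowest for every gene except Hes1 and Egr2.

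Immediate early and activation-induced genes, which lymphocytes switch on within minutes to hours of a signal, also leaned negative. Of 35 listed 30 were measured, with a median difference of -0.30, 17 intervals below 0 and 8 above. Over all genes 19.4% of intervals lay below 0 and 25.5% above, so the 8 above were near the general share. The 5 members called negative were Dusp1, Fosb, Zfp36l2, Rgs1 and Dusp2, and Egr2 was called positive. Dusp1, a phosphatase that turns off MAP kinases, stood at 25.3, 38.6, 38.6 and 14.2 CPM. Its response was 0.61 in WT and -1.44 in Irf4-/-, a difference of -2.05 (-2.33 to -1.79). The Irf4-/- injected library was the lowest of the 4 for Dusp1 and also for Fosb, an AP-1 subunit, at 9.80, 7.75, 19.2 and 3.87. The difference for Fosb was -1.94 (-2.47 to -1.47), and unlike the others its WT level was not higher after injection.

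Zfp36l2, an RNA-binding protein that promotes decay of AU-rich messenger RNAs, was the most abundant of the called genes at 1624, 2754, 1674 and 978.3 CPM. Its interval was correspondingly narrow, -1.54 (-1.57 to -1.50). Rgs1, which damps signalling from G-protein-coupled chemokine receptors, stood at 37.7, 68.2, 57.4 and 37.9, a difference of -1.45 (-1.65 to -1.26). Dusp2 stood at 318.6, 475.5, 358.5 and 245.3, a difference of -1.12 (-1.20 to -1.05). These members were highest in WT injected and had their lowest value in Irf4-/- injected, except Rgs1, whose low values in WT control and Irf4-/- injected were alike.

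The EGR family did not share that pattern. Egr2, a transcription factor induced by receptor signalling that restrains lymphocyte activation, stood at 9.80, 8.29, 5.81 and 10.96 CPM, a difference of 1.14 (0.67 to 1.64). Egr1 and Egr3 had differences of 0.72 each and the orphan nuclear receptor gene Nr4a3 one of 0.56. The WT responses of these 4 lay between -0.29 and 0.12, and the injected library was the higher of the Irf4-/- pair. The list therefore held members on both sides.

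**Figure D3:**
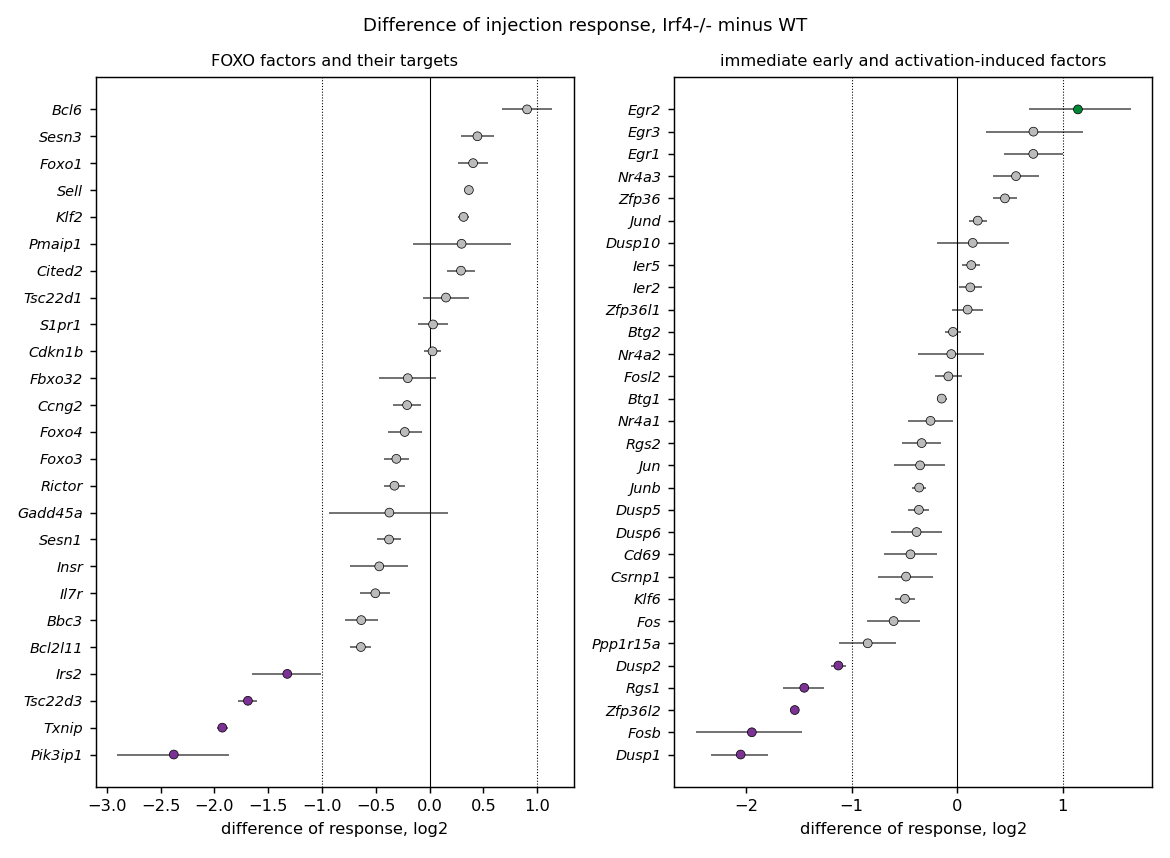
Difference of response (Irf4-/- minus WT, log2) of the measured members of the FOXO list (left, 25 genes) and the immediate early list (right, 30 genes), each with its exact 95% counting interval; dotted lines mark 2-fold. Purple points are called negative and the green point positive. Pik3ip1, Txnip, Tsc22d3 and Irs2 stand apart from the rest on the left, and Dusp1, Fosb, Zfp36l2, Rgs1 and Dusp2 on the right.

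Among chemokine and egress receptors, 12 measured, the called genes pointed in opposite directions. Cxcr4, which holds lymphocytes in the bone marrow through its ligand CXCL12, stood at 220.0, 360.1, 204.5 and 110.6 CPM, a difference of -1.60 (-1.69 to -1.50). Cx3cr1, the fractalkine receptor and a marker of mature NK cells, stood at 68.6, 24.7, 212.8 and 207.7. Its level was lower after injection in WT (-1.47) and nearly level in Irf4-/- (-0.04), a difference of 1.43 (1.27 to 1.61). Both Irf4-/- libraries held more Cx3cr1 than either WT library. The purinergic-family receptor gene P2ry10 had a difference of -0.77 (-0.89 to -0.65), and S1pr5, the sphingosine phosphate receptor that NK cells use to leave marrow and node, 0.57 (0.51 to 0.64).

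S1pr5 and Cx3cr1 are also members of the late NK maturation list, all 18 of which were measured. The list had a median response of -0.43 in WT and -0.15 in Irf4-/-, a median difference of 0.23, and 12 intervals above 0 against 3 below. Tbx21, the gene of the maturation factor T-bet, stood at 508.7, 337.4, 482.8 and 545.8 CPM, a difference of 0.77 (0.71 to 0.83). Zeb2, which acts with T-bet in terminal maturation, differed by 0.39 (0.30 to 0.48), and Klrg1, the receptor that marks terminal NK cells, by 0.49 (0.37 to 0.60). Prdm1, the gene of the repressor BLIMP1, went the other way at 88.2, 129.95, 103.6 and 86.4, a difference of -0.82 (-0.95 to -0.69). The WT injected library was the lowest of the 4 for Tbx21, Zeb2, Klrg1 and S1pr5, and the highest for Prdm1. In bulk RNA, fewer cells of a type and less RNA per cell cannot be told apart.

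Genes of early and stem-like NK cells, 18 measured of 19, had a median difference of 0.14 with 9 intervals above 0 and 6 below. Il7r, the interleukin 7 receptor, was higher after injection in both genotypes, at 61.9, 199.7, 63.4 and 144.2 CPM, so that its difference of -0.50 (-0.65 to -0.36) is between 2 responses of the same direction. Xcl1, a chemokine that recruits cross-presenting dendritic cells, stood at 114.8, 83.7, 116.3 and 155.3, a difference of 0.87 (0.75 to 0.999). Id3, an inhibitor of E proteins, stood at 5.33, 2.69, 6.81 and 7.95 and was called at 1.18 (0.58 to 1.84). For genes of type 1 innate lymphoid cells and tissue residency the median difference was 0.16 over 20 members. Tnf was called at 1.03 (0.50 to 1.60), and Itga1, the collagen-binding integrin chain CD49a, stood at 8.33, 6.14, 12.4 and 16.8, a difference of 0.87 (0.43 to 1.32). For Xcl1, Tnf and Itga1 the WT injected library was the lowest and the Irf4-/- injected library the highest.

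The 19 measured genes of cytotoxic granules and their release had a median difference of 0.16 and none was called. Over all measured genes 0.476% were called positive and 0.796% negative, so a list this small with none called was near those shares. Prf1 (perforin) differed by 0.38 (0.34 to 0.42), Gzmb by -0.55 (-0.62 to -0.49) and Gzmk by -0.81 (-1.26 to -0.37). Gzmb stood at 463.7, 449.5, 537.4 and 354.8 CPM, so its difference lay in the Irf4-/- pair. Of the 25 NK receptors and adaptors none was called either. The largest differences there were Slamf7, a self-ligand receptor that activates NK cells, at 0.96 (0.82 to 1.10), and Klrb1a at -0.59 (-0.71 to -0.47). The 12 inhibitory receptors and checkpoints had a median difference of 0.04, with Tigit at -0.62 (-0.83 to -0.41) from a level that was higher after injection in both genotypes.

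Cytokine signalling genes were divided. Of 32 measured, 12 had intervals below 0 and 10 above, with a median difference of -0.02. Besides Socs2, Ifngr1, the ligand-binding chain of the interferon gamma receptor, was called negative at 534.0, 944.8, 581.2 and 511.9 CPM, a difference of -1.01 (-1.06 to -0.95). Socs1 had a difference of -0.54 (-0.74 to -0.34) and Jak3, the kinase bound to the common gamma chain, 0.59 (0.51 to 0.66). Pim2, a STAT5-induced kinase, was higher after injection by 0.88 in WT and 0.85 in Irf4-/-, which differed by -0.03 (-0.13 to 0.07). The high reading in WT injected alone therefore did not extend to every gene of cytokine signalling.

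NF-kB factors and inhibitors had a median difference of 0.21 over 16 genes, and Tnfaip3 and Nfkbiz had its most negative values. Tnfaip3, which encodes the ubiquitin-editing brake A20, stood at 121.3, 279.6, 118.3 and 115.8 CPM, a difference of -1.23 (-1.35 to -1.12), with WT injected the only high library. Nfkbiz differed by -0.66 (-0.84 to -0.49), Bcl3 by 0.72 (0.51 to 0.93) and Nfkb2 by 0.49 (0.36 to 0.62). Pro- and anti-apoptotic genes of the BCL2 family, 12 measured, leaned negative with a median of -0.13: Bmf had a difference of -0.93 (-1.30 to -0.57) and Bcl2 one of -0.74 (-0.82 to -0.66), both higher after injection chiefly in WT.

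Several other WT-high genes were chosen for mention after their values were seen. Klf9, a Krüppel-like repressor, stood at 9.99, 31.7, 9.61 and 11.1 CPM, a difference of -1.45 (-1.85 to -1.07). Per1, a component of the circadian clock, stood at 57.4, 150.5, 53.3 and 56.9, a difference of -1.29 (-1.46 to -1.13). Sik1, a salt-inducible kinase, stood at 9.94, 23.8, 11.6 and 11.8, a difference of -1.23 (-1.62 to -0.86). In all 3 the WT injected library stood above 3 libraries that were close to each other.

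Of the 23 pathway lists, 19 had a median difference above that of all genes, so such a median was common among them. The 5 lists with the most positive median differences were those of S phase (0.35), chemokines and effector cytokines (0.31), endoplasmic reticulum folding (0.31), heat shock (0.28) and mitosis (0.27). Of the 10 chemokine and cytokine genes measured, 8 had intervals above 0 and 1 below, and their median response was -0.22 in WT and 0.16 in Irf4-/-. Tnf and Xcl1, given above, had the largest positive differences among them, and Ccl5 stood at -0.18 (-0.21 to -0.15). Heat shock proteins and cytosolic chaperones, 26 of 29 measured, had a median response of -0.72 in WT and -0.34 in Irf4-/-, a median difference of 0.28, 18 intervals above 0 and 1 below. The inducible chaperone gene Hspa1b stood at 99.2, 0.969, 24.2 and 1.02 CPM, so that both injected libraries were near 1 CPM and the control libraries differed. Its difference of 2.10 (1.08 to 3.14) therefore rested on the control libraries, and its response was negative in both genotypes, -6.53 in WT and -4.43 in Irf4-/-. Hsph1 stood at 276.6, 60.3, 205.5 and 88.3, a difference of 0.98 (0.85 to 1.11), and Hsp90aa1 at 579.0, 198.6, 430.0 and 258.0, a difference of 0.81 (0.73 to 0.88). The heat shock element GAANNTTC, read on both strands, was in 45.5% of the 22 promoters of the list and in 6.65% of those of measured genes. Heat shock genes are known for this element, so the share of the list lends no support. Among called genes with a promoter the element was in 2.86% of the 35 positive and 5.88% of the 34 negative ones.

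Endoplasmic reticulum folding genes, 25 measured, had medians of -0.25 in WT and 0.07 in Irf4-/-, a median difference of 0.31 with 14 intervals above 0 and 2 below. Calr, the calcium-binding chaperone calreticulin, stood at 451.2, 243.2, 407.1 and 475.0 CPM, a difference of 1.11 (1.04 to 1.18). Hspa5, the reticulum's main chaperone BiP, differed by 0.66 (0.60 to 0.73), and Hyou1 by 0.69 (0.56 to 0.81). For these 3 genes the WT injected library was the lowest, and Hspa5 in the other 3 was nearly level.

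DNA replication and S phase genes, 30 measured, had medians of -0.56 in WT and -0.23 in Irf4-/-, and 20 of their intervals lay above 0 against 2 below. Mitosis and G2/M genes, 31 measured, had medians of -0.80 and -0.50, with 12 above and 1 below. Cdc45, a subunit of the replicative helicase, stood at 16.7, 7.43, 14.2 and 12.9 CPM, a difference of 1.03 (0.64 to 1.44). Kif2c, a mitotic microtubule-depolymerising kinesin, stood at 7.42, 3.23, 7.12 and 8.38, a difference of 1.41 (0.86 to 2.02). Uhrf1 differed by 0.97 (0.74 to 1.22) and E2f2 by 0.94 (0.73 to 1.15), just under the 2-fold bound. In each of these 4 genes the WT injected library was the lowest. The cell-cycle homology motif TTTGAA, on both strands, was held by 76.9% of the 26 mitosis promoters against 14.3% of measured genes. Mitosis genes are known for this motif, so the share of the list lends no support. Among called genes with a promoter the motif was held by 25.7% of the 35 positive and 14.7% of the 34 negative ones.

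**Figure D4:**
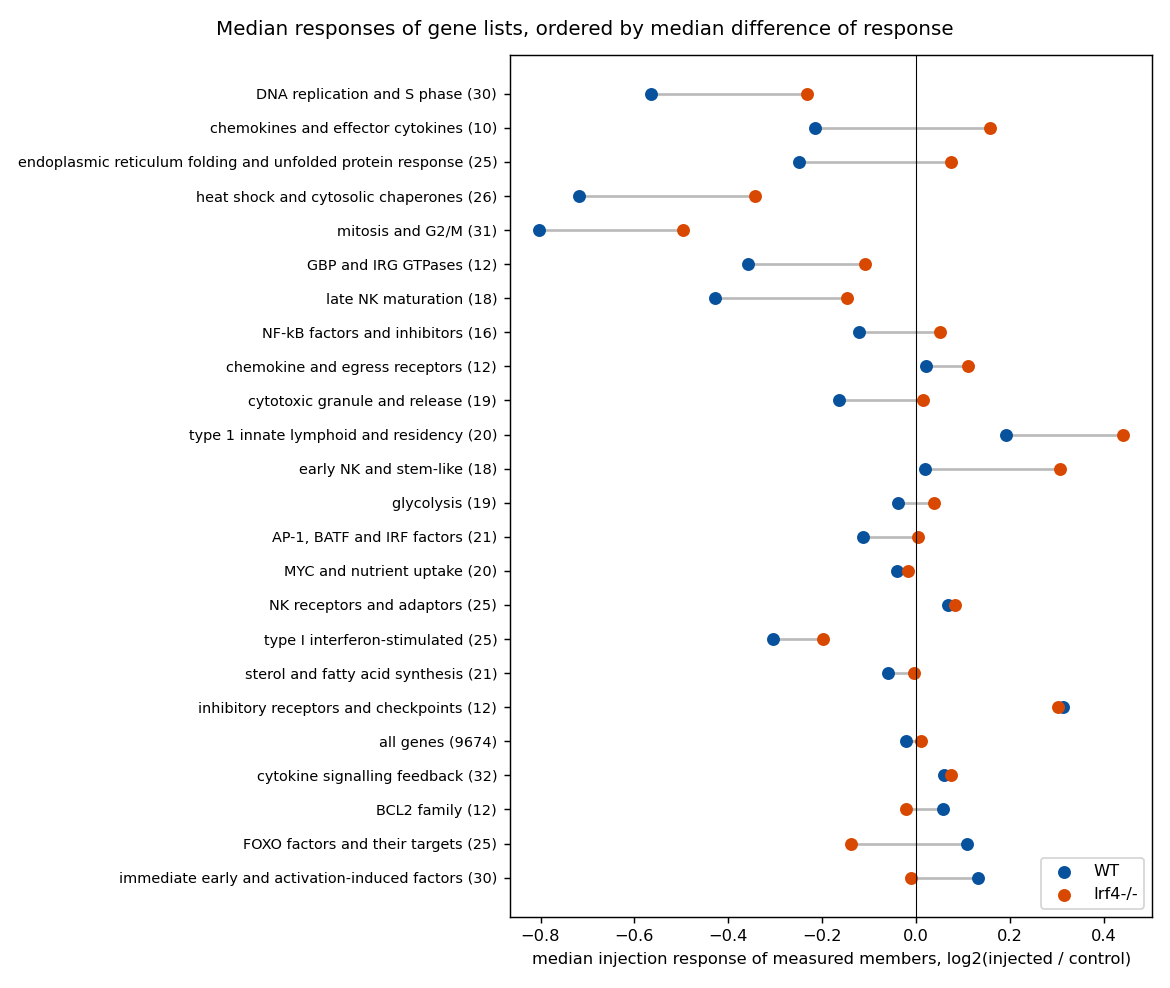
Median injection response of the measured members of each gene list in WT (blue) and Irf4-/- (orange), log2(injected / control), with the number of members in brackets; lists are ordered by their median difference of response. The widest gaps with the blue point to the left belong to S phase, chemokine, endoplasmic reticulum, heat shock and mitosis genes, and the blue point lies to the right of the orange one in the FOXO and immediate early lists.

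Interferon-stimulated genes had a median difference of 0.06 over 25 members and were lower after injection in both genotypes, with medians of -0.30 and -0.20. Ifit3, an inducible antiviral protein, was called at 1.09 (0.57 to 1.66) from 8.85, 4.31, 7.06 and 7.41 CPM, and Oas3 differed by 0.66 (0.32 to 1.01). Oasl1 and Mx1 went the other way, by -0.87 (-1.46 to -0.33) and -0.74 (-1.05 to -0.44). The interferon regulatory factor motif GAAANNGAA, on both strands, was in 52.9% of 17 promoters of the list and in 8.93% of measured genes. Interferon-stimulated genes are known for this motif, so the share of the list lends no support. Among called genes with a promoter, 8 of 35 with a more positive response held the motif (22.9%). Of those with a more negative response 3 of 34 did (8.82%). Whether these small counts differ was not tested. A match describes letters, not binding. The cyclic AMP response element TGACGTCA was held by 12.5% of 24 immediate early promoters against 3.88% of measured genes. Immediate early genes are known for this element, so that share lends no support either. For the STAT motif TTCNNNGAA, the AP-1 motif TGANTCA and the E2F motif GGCGGGAA the shares among measured genes were 8.37%, 5.53% and 5.1%. Among the 34 negative called genes with a promoter they were 11.8%, 5.88% and 14.7%, and among the 35 positive ones 8.57% each. These motifs can overlap one another. Among the metabolic lists, glycolysis, MYC and nutrient uptake, and sterol and fatty acid synthesis had median differences of 0.12, 0.09 and 0.05. None of their 60 members was called, which was near the shares over all measured genes, 0.476% positive and 0.796% negative.

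Some called genes are markers of other cells, and their levels moved with the comparison. The erythroid genes Hba-a1, Hbb-bt and Hbb-bs had the largest positive differences, 2.42, 2.27 and 2.18. Hba-a1 stood at 15.2, 6.73, 16.5 and 39.7 CPM and Hbb-bs at 14.3, 7.91, 20.1 and 50.9, highest in Irf4-/- injected and lowest in WT injected. Of the 8 erythroid markers 4 were measured, and the 8 summed to between 199 and 356 CPM, most of it Car2. Macrophage and monocyte markers, 7 of 15 measured, summed to 48.2, 109, 68.8 and 85.8 CPM. Vcam1 and Hmox1, which red-pulp macrophages express, were called at -1.27 (-1.84 to -0.74) and -1.29 (-1.84 to -0.79). B-cell markers, 3 of 8 measured, summed to 36.4, 13.7, 40.5 and 23.95 CPM. T-cell markers, 5 of 10 measured, summed to 142.8, 134.0, 114.9 and 131.9 CPM, most of it Trbc2 at 85.5, 83.9, 65.6 and 82.3. These markers had 2 intervals of the difference above 0 and 1 below. Of these Cd3e was called at 1.04 (0.49 to 1.62), from 9.37, 5.28, 5.18 and 6.07, and Trac stood at -0.68 (-1.33 to -0.06). The part of these cells in the other differences was not tested. With all the fixed markers of other cells left out, an alternative chosen after seeing the data, 41 genes were called positive and 75 negative.

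Reads assigned to near-identical copies also stood out. Of the 77 genes with a more negative response 20 were pseudogenes, of 95 pseudogenes measured (21.1%, against 0.796% of all measured genes). In all 20 the WT control library was the lowest of the 4. The mitochondrial genes mt-Co3 at 5.09, 18.5, 18.8 and 16.8 CPM and mt-Co2 at 9.85, 26.8, 29.0 and 26.0 had the same arrangement. Ribosomal protein genes held 4.77%, 5.93%, 4.28% and 4.65% of counts and mitochondrial genes 0.905%, 1.14%, 0.962% and 0.976%. Which copy such reads came from is uncertain. Without the pseudogenes, the ribosomal copy Rps27rt and the mitochondrial genes, also chosen after seeing the data, 45 genes were called positive and 53 negative.

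Within 10 Mb of Irf4, where DNA flanking a targeted allele can differ from the WT strain, 51 genes were measured. The 3 called, all negative, were genes of the histone cluster there, Hist1h1e, Hist1h1c and Hist1h4d. Over all measured genes 0.796% were called negative. Hist1h1e, a linker histone, stood at 8.85, 18.9, 6.74 and 3.44 CPM, a difference of -2.04 (-2.61 to -1.53). The start of chromosome 11 up to 6.3 Mb, a segment taken from earlier results of these data, held 48 measured genes. Of these Pik3ip1 (3330401 to 3342971) was the 1 called. Whether its position bears on its level was not tested.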

How the data were processed

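Messenger RNA of sorted splenic NK cells was sequenced in 4 libraries, 1 per combination of genotype and injection. The files the authors deposited hold raw counts of reads for each gene, and the deposited FPKM values scale them by gene length and library total. TopHat, edgeR and mm10 are named in the submitters' processing notes. The counter, annotation and strand setting were not given in the sources used here. Symbols matched GENCODE M21 (GRCm38) for 34490 of 35275 identifiers; the others held at most 0.0887% of counts.

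Scaling used the TMM factors of edgeR 4.0.16 (R 4.3.3), and log2 CPM used a prior count of 2. Intervals of a pair of libraries are exact (Clopper-Pearson), and those of the difference exact conditional intervals of the ratio of ratios. The code of the calling steps was run on simulated libraries drawn from a common profile, with known changes placed in the simulated Irf4-/- injected library. Little variation between libraries was put in, so that run checks the code and not how far calls would repeat in other animals or sorts. Groups came from the sample titles and the design text, in which treated means injected.

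Named genes are Irf4, the 15 largest called protein-coding differences each way, up to 4 members of each list whose interval excludes 0, and the genes nearest the bound; some are left out for length, 1 is not reported here, and others named beside a count or description (among them Klf9, Per1, Sik1, Dusp2, Pim2 and Zeb2) were chosen after their values were seen. The members, lists and rule were chosen with earlier results of these data known. Promoters (RefSeq, GRCm38.p6, 250 bases before to 50 after the start) were found for 7650 of the 9674 measured genes. Alternatives were other scalings, minimums, prior counts and folds, and FPKM.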

Additional observations from a re-analysis of the deposited data

Results flagged for a closer look

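In 14 called genes the responses of the genotypes ran in opposite directions, each at least 1.5-fold with a counting interval excluding 0; with 1 library in each group the difference itself was not tested. The split by direction depends on that size. With no 1.5-fold size asked, responses of opposite sign with both intervals excluding 0 were found in 22 of the 77 negative and 18 of the 46 positive genes. In 11 of the 14 genes the injected library was the higher of the WT pair and the lower of the Irf4-/- pair. Their differences of response were -2.70 for Slc15a2, -2.58 for Socs2, -2.18 for Lamb3, -2.05 for Dusp1, -2.04 for Hist1h1e, -1.77 for Ager, -1.69 for Tsc22d3, -1.60 for Cxcr4, -1.54 for Zfp36l2, -1.45 for Rgs1 and -1.39 for Hist1h1c. Lamb3, a laminin chain, stood at 3.09, 8.77, 7.43 and 4.51 CPM, and Ager, a receptor for glycated proteins, at 5.85, 11.8, 7.30 and 4.24, in the order WT control, WT injected, Irf4-/- control and Irf4-/- injected. The other 3 were globin genes, which ran the opposite way at 2.18 for Hbb-bs, 2.27 for Hbb-bt and 2.42 for Hba-a1.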

How the results depend on the processing

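No paired analysis was possible because each group is 1 library, and no library can be left out because the difference needs all 4. The counts of genes called positive and negative (46 and 77) became 175 and 291 with a minimum mean of 1 CPM, 7 and 24 with 20 CPM, 367 and 321 with a 1.5-fold bound, and 5 and 23 with a 3-fold bound. On deposited FPKM with a pseudocount of 1 they were 16 and 54. Negative calls outnumbered positive ones in these settings except at 1.5-fold. Under the other alternatives (3 scalings, TMM without abundant families, 2 prior counts, no counting interval, FPKM with a pseudocount of 0.1) they lay between 37 and 47 and between 73 and 82. Of 1000 values of 125 named genes under the scaling, prior count and FPKM alternatives none changed sign and 7 moved beyond the counting interval. Of 327 list medians 3 changed sign, those of cytokine signalling, inhibitory receptors and dendritic markers. Depth sets the precision of single values: 39 of the 46 and 53 of the 77 called genes had means under 20 CPM, where intervals typically reached 0.415 to either side. Counting error removed no call, since the counts were the same with no interval required.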

Other observations

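Several WT-high genes above are known targets of the glucocorticoid receptor, and a list of 32 such targets was written after the values were seen, so its counts support nothing and are given as values. Of 26 measured, 11 were called negative and none positive, where 0.796% and 0.476% of all measured genes were. The median response of the list was 0.56 in WT and -0.10 in Irf4-/-. The list's members did not move as 1 group. Fkbp5, a co-chaperone of the receptor and among its best-known targets, stood at 115.8, 241.1, 109.5 and 211.2 CPM (WT control, WT injected, Irf4-/- control, Irf4-/- injected), a difference of -0.11 (-0.22 to -0.00), and Sgk1, a kinase, had responses of -1.004 in WT and -0.77 in Irf4-/-. The receptor gene Nr3c1 differed by -0.10 (-0.19 to 0.00).

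A few genes were highest in the Irf4-/- injected library, with little difference within the WT pair. Asph, an aspartyl hydroxylase, stood at 3.09, 2.96, 15.7 and 37.0 CPM, a difference of 1.29 (0.71 to 1.88), Tmem106a at 4.62, 3.50, 10.1 and 20.9, a difference of 1.43 (0.90 to 1.999), and Pltp, a phospholipid transfer protein, at 3.04, 2.91, 5.18 and 12.5, a difference of 1.32 (0.67 to 2.01). In all 3 the counting interval of the WT response included 0.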
